A study of Homo sapiens with 10 samples.

Results

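The TSH phase and the cAMP phase of thyroid differentiation from human embryonic stem cells (hESC) were compared over 8 of the 10 libraries of the series, chosen by their labelled day. The TSH phase comprised 4 libraries, 2 of day 38 and 2 of day 45, and the cAMP phase comprised 4 libraries, 2 of day 23 and 2 of day 31. All came from the hESC line ESIBIe003-A-6, in which GFP marks NKX2-1 expression from 1 allele and doxycycline had switched on NKX2-1 and PAX8 transgenes for a short time early in the culture. Each library was made from sorted NKX2-1GFP+ cells by bulk RNA-seq, and each sample pooled several culture wells. Cells of days 23 and 31 had grown with 8-br-cAMP, a cell-permeable analog of cyclic AMP, although the study's schedule ends cAMP just before day 31, so the label of that day was followed here. Cells of day 38 had been moved to recombinant TSH (hrTSH) with dexamethasone, and those of day 45 also received SB431542, a blocker of TGF-beta type I receptors, which the label of day 38 does not name although one passage of the study starts it just before that day. The label of day 45 names TSH and SB alone, and dexamethasone at that day comes from the study's methods. The 2 libraries of day 16, before cAMP by the study's methods although labelled c-AMP, are given as a reference. The question was which genes differed between the phases in the same way at both days of each. Medium, days in culture and the sampling run together here, so their parts in a difference between the phases cannot be told apart, and cells kept on cAMP to days 38 and 45 were not analysed here. In bulk libraries, fewer cells of a type and less RNA per cell cannot be told apart either.

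TSH acts on thyroid follicular cells through its receptor TSHR, a G protein-coupled receptor that raises cyclic AMP and thereby activates protein kinase A. In the mature follicle, iodide enters through the symporter SLC5A5 and is coupled to thyroglobulin (TG) with hydrogen peroxide made by DUOX enzymes. Dexamethasone activates the glucocorticoid receptor, a transcription factor that raises some genes and restrains many inflammatory ones.

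Counted totals were 8610133 and 8318446 (day 23), 9122044 and 8065086 (day 31), 10333933 and 9121301 (day 38), and 7247268 and 9592839 (day 45). Of 28265 gene symbols, 21014 had at least 5 counts in at least 2 libraries and were tested. Levels are in CPM, the count of a gene scaled to a common library size with TMM factors, and stand as the mean ± SD of a phase's 4 libraries unless single libraries are named. Fold changes are log2 of the TSH phase over the cAMP phase ± SE, taken from the mean of the log2 values of the 2 days of each phase. Where a day had no count, a fitted fold change, and the median of a list that rests on such genes (HOX genes, metallothioneins and airway markers below), depends on how the fit treats 0 and is not a measured size. A value in parentheses after a gene is that log2 fold change with its adjusted p, and day means are listed in the order of days 23, 31, 38 and 45. NKX2-1, the gene behind the sort, was present throughout, with day means of 136, 154, 143 and 62.4 CPM. PAX8, a thyroid transcription factor that the sort did not use, had day means of 509.7, 503, 514 and 518 CPM.

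At an adjusted p under 0.05, 6274 of the 21014 genes (29.9%) differed between the phases, 3391 higher in the TSH phase (16.1%) and 2883 lower (13.7%). Far fewer did so over every pairing of the days. The libraries of one phase all lay above those of the other in 5052 genes (24.0%). A gene was called consistent when days 38 and 45 each differed from days 23 and 31 in the same direction, all 4 day pairs and the phase contrast passed the threshold, and the 4 libraries of one phase all lay above the 4 of the other. In all 1565 genes (7.45%) were consistent, 934 higher (4.44%) and 631 lower (3.0%), and the median size of their log2 fold change was 1.38. The other 4709 called genes were not consistent. In 1944 of these the libraries of the phases overlapped, and in 560 at least 1 day pair ran against the phase difference. Scaling to library size alone, without TMM factors, lowered the median signed log2 fold change of all genes from 0.02 to -0.15 and turned the balance of the consistent genes to 646 higher and 1131 lower, of all called genes to 2463 higher and 4275 lower, so counts of higher and lower genes hold only relative to the TMM scale. A fit of the 8 libraries with 1 mean per phase, in which change between the days of a phase counts as error, called 3951 genes, all 1565 consistent genes among them. Consistent genes were chosen in the same libraries for phases that do not overlap, which favours this call, so nothing is read from it. A fit that treated the summed counts of a day as 1 sample, 2 days against 2, called 582 genes (375 higher, 207 lower), of which 579 were consistent genes (37% of them), and 58 of the 142 genes named in the text lost their call in it. Leaving out day 38 replicate 1 lowered the consistent genes to 1033.

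**Figure D1:**
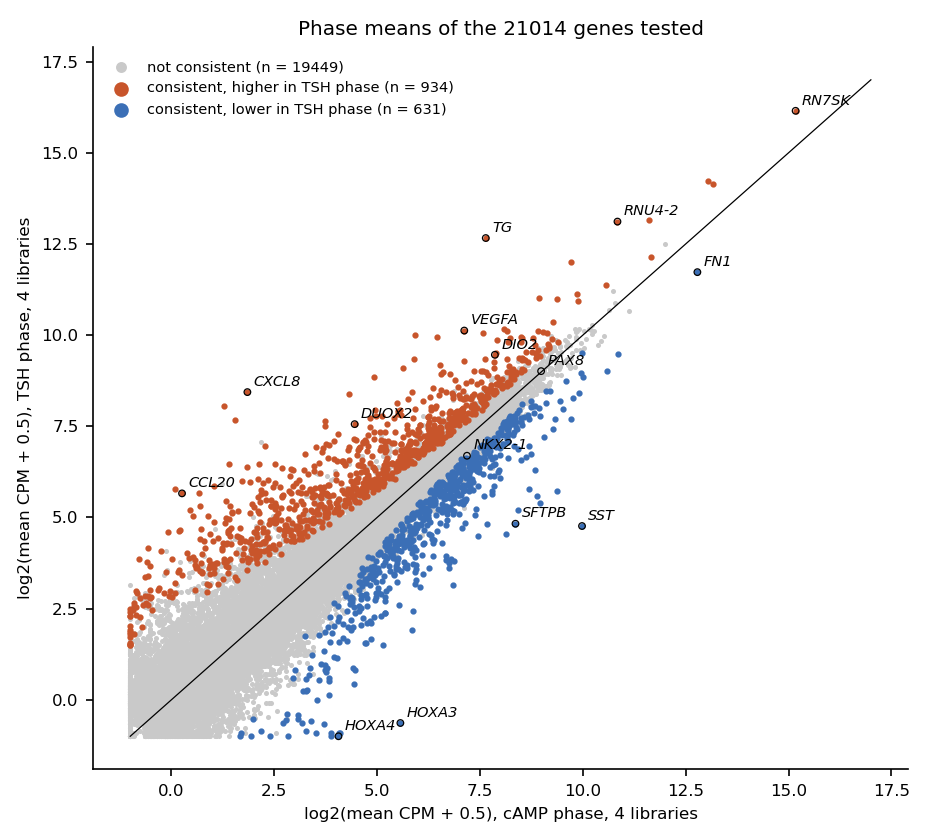
Mean level of each of the 21014 tested genes in the cAMP phase (x axis) and the TSH phase (y axis), as log2 of the mean CPM of 4 libraries plus 0.5, with the line of equal level. The 934 consistent genes higher in the TSH phase are shown in orange, the 631 lower in blue and the rest in grey, and TG and SST lie far from the line on opposite sides.

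A narrower group of 771 genes (3.67%) made a steady step, with a log2 fold change of at least 1 in size and changes within each phase that were each under 0.5 times that size. Of these, 480 were higher (2.28%) and 291 lower (1.38%), and 531 of the 771 (68.9%) were also called in the fit of summed days. The rule for a steady step limits change within a phase, which is the error of that fit, so nothing is read from this share. The phases themselves were not equally even. Only 473 genes (2.25%) differed between days 23 and 31, whereas 2353 (11.2%) differed between days 38 and 45. In the plot of the change from day 38 to day 45 against the phase change, TG and FKBP5 changed little within the TSH phase beside their change between the phases, while SFTPB, NR4A2 and NFKBIA changed more.

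**Figure D2:**
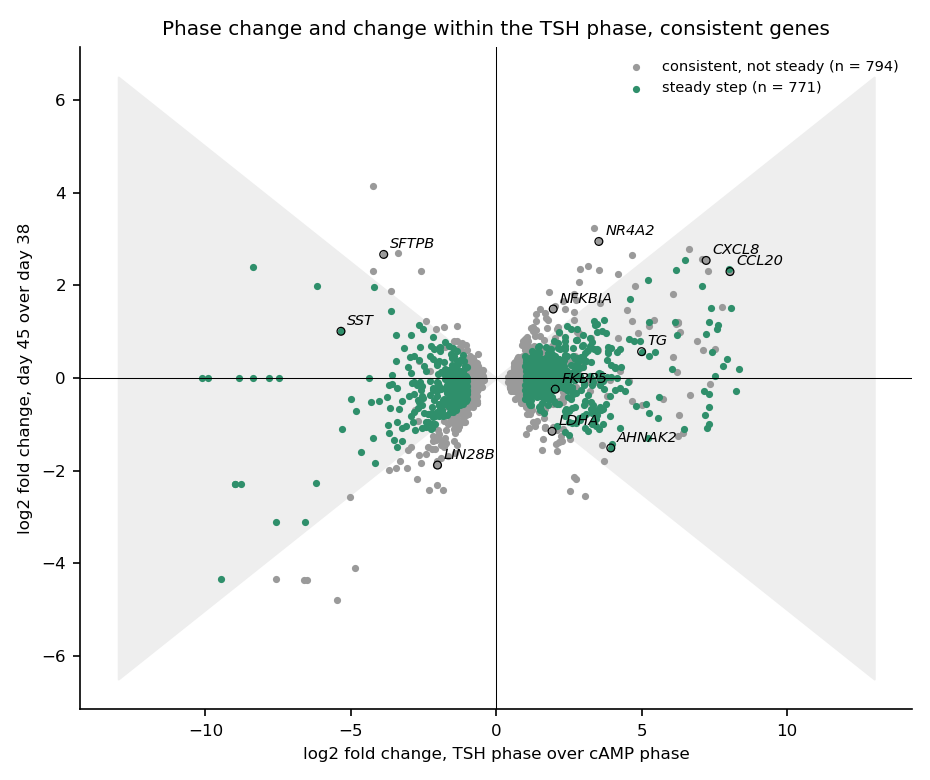
For the 1565 consistent genes, the log2 fold change between the phases (x axis) against the log2 fold change from day 38 to day 45 (y axis), both from the same fit. Green points are the 771 genes with a steady step and grey points the other consistent genes. In the shaded area the change within the TSH phase is under 0.5 times the phase change, and genes without counts at days 38 and 45 lie at 0 on the y axis.

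Genes that make and store thyroid hormone were among those that differed most. Of 16 genes for hormone synthesis and iodide handling, 11 rose and 2 fell, 8 were consistent, all higher, and their median log2 fold change was 1.54. TG, the protein scaffold of the hormone, measured 207 and 178 CPM (day 23), 199.9 and 212 (day 31), 5547 and 4875 (day 38), and 7964 and 7525 (day 45). Every TSH-phase library lay far above every cAMP-phase library, and TG rose further from day 38 to day 45 (log2 fold change 0.57, adjusted p = 1.2e-04). The phase means were 6478 ± 1499 CPM in the TSH phase and 199 ± 14.8 in the cAMP phase, a log2 fold change of 5.0 ± 0.09, adjusted p = 4.0e-31.

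DUOX2, the hydrogen peroxide generator, had 25.5 and 14.4 CPM (day 23), 23.9 and 21.9 (day 31), 163 and 138 (day 38), and 227 and 224 (day 45). Neither phase overlapped the other (log2 fold change 3.11 ± 0.16, adjusted p = 8.7e-18). DIO2, the deiodinase that converts T4 to T3, measured 242 and 227 CPM (day 23), 216 and 243 (day 31), 773 and 746 (day 38), and 565 and 732 (day 45), an even step with a log2 fold change of 1.60 ± 0.09, adjusted p = 4.4e-16. SLC26A7, an anion transporter of thyroid cells, had phase means of 141 ± 38.1 CPM in the TSH phase and 21.2 ± 5.35 in the cAMP phase (log2 fold change 2.71 ± 0.16, adjusted p = 1.1e-15), with the higher values at day 38. SLC5A5, the iodide symporter, stayed scarce, with 0 and 1 counts (day 23), 0 and 13 (day 31), 43 and 70 (day 38), and 92 and 158 (day 45). All 4 counts of the TSH phase exceeded those of the cAMP phase, and SLC5A5 was consistent (adjusted p = 4.0e-07). TSHR rose less, from 74.5 ± 6.42 to 135 ± 17.4 CPM (log2 fold change 0.85 ± 0.13, adjusted p = 4.2e-06). DUOXA1, a maturation factor of DUOX enzymes, was also consistent (2.74 ± 0.38, adjusted p = 4.8e-07), but its exons overlap DUOX1 and DUOXA2 on the opposite strand, and the strand setting of the counting is not stated, which leaves these 3 values uncertain. The same holds for GNAS, PDE4D, TNFAIP3, NID2, LAMB1, HSP90B1, CRELD2, MCM7 and HMGA2, named below, which share exon bases with a tested gene of the opposite strand in GENCODE 44.

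**Figure D3:**
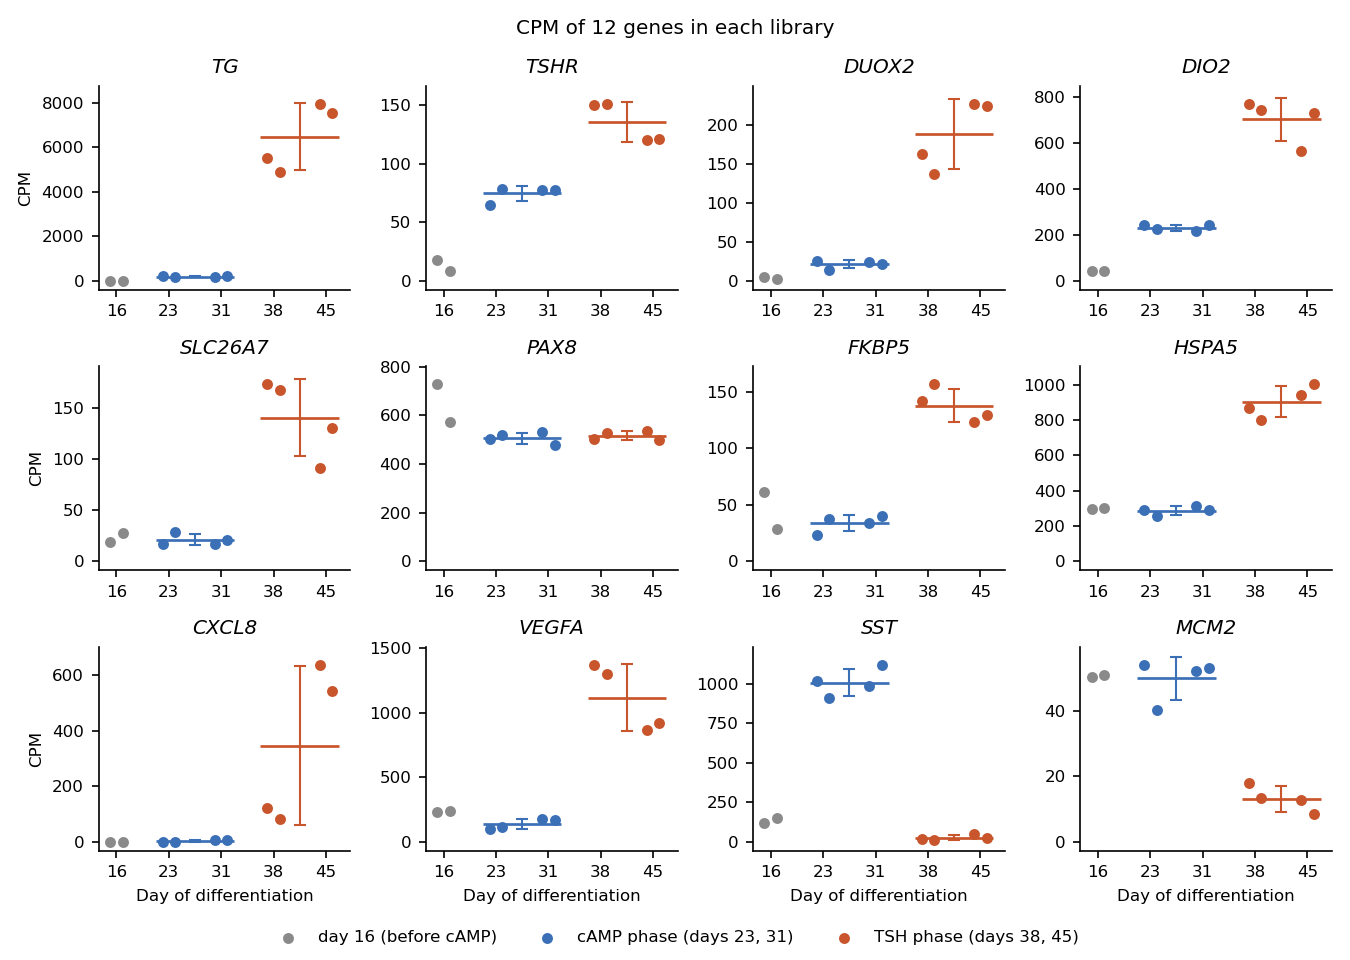
CPM of 12 genes (y axes, linear) in each of the 10 libraries by day of differentiation (x axes), with the 2 replicates of a day side by side. Horizontal lines and bars give the mean ± SD of the 4 libraries of a phase. PAX8 overlaps between the phases, while TG, TSHR, DUOX2, DIO2, SLC26A7, FKBP5, HSPA5, CXCL8 and VEGFA lie higher in the TSH phase and SST and MCM2 lower, with no overlap.

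Of the 2 members called lower, IYD, which recovers iodide from iodotyrosines, measured day means of 149, 207, 189 and 74.8 CPM, with its low values at day 45. Without day 45 its log2 fold change was 0.10. The thyroid transcription factors did not follow the hormone genes. PAX8 (0.03 ± 0.09, adjusted p = 0.869) and FOXE1 (-0.15 ± 0.10, adjusted p = 0.252) were not called. NKX2-1 and HHEX were called lower (-0.61 and -0.78), and neither was consistent. NKX2-1 at day 38 lay among the cAMP-phase values and dropped to 62.4 CPM at day 45. HHEX did not overlap between the phases, but day 38 missed the threshold against days 23 and 31 (adjusted p = 0.071 and 0.117). Without day 45 NKX2-1 was not called (-0.01), and FOXE1 was called lower without TMM factors (-0.33) or without day 38 (-0.56). For NKX2-1 and PAX8 the transcripts of the transgenes, the modified allele and the native gene cannot be told apart in counts per gene, and both overlap an antisense RNA.

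The chain from the TSH receptor to protein kinase A was divided. Of 12 members tested, 4 rose, 1 fell and 7 were not called, beside 29.9% of all genes called. Without day 23 or without day 38, 3 rose and 0 fell, beside 4464 and 5863 of all 21014 genes called. The list then lay near the background. Their median log2 fold change was 0.14. GNAS, the stimulatory G protein, and PRKACA, the main catalytic subunit of the kinase, were not called (0.04 ± 0.08, adjusted p = 0.723, and 0.12 ± 0.16, adjusted p = 0.628). The 3 consistent members were ADCY9, an adenylyl cyclase (1.23 ± 0.13, adjusted p = 1.0e-09), PRKACB, a second catalytic subunit (0.96 ± 0.13, adjusted p = 4.7e-07), and PRKAR2A, a regulatory subunit (0.65 ± 0.12, adjusted p = 3.1e-05), although PRKAR2A shares exon bases with an antisense RNA. With the libraries of a day summed, none of the 3 was called (1.20, adjusted p = 0.0512, 0.97, adjusted p = 0.057 and 0.63, adjusted p = 0.13). Without TMM factors this list counted 3 higher and 2 lower, with a median of -0.04.

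Of 15 genes tested that are known to respond to cyclic AMP, 10 rose and 1 fell in the phase without 8-br-cAMP, with a median of 1.04, and 3 were consistent, all higher. PDE10A, a phosphodiesterase that degrades cyclic nucleotides, measured 26.4 and 23.2 CPM (day 23), 34.1 and 24.9 (day 31), 156 and 189.8 (day 38), and 132 and 131 (day 45). The libraries of the TSH phase all lay above those of the cAMP phase (log2 fold change 2.48 ± 0.13, adjusted p = 5.7e-17). PPARGC1A, a coactivator of mitochondrial genes, rose from 17.4 ± 1.47 to 93.6 ± 38.7 CPM (2.36 ± 0.17, adjusted p = 1.3e-13). NR4A2, an orphan nuclear receptor, was consistent but uneven, with day means of 2.56, 5.03, 15 and 116 CPM, and NR4A3, its relative, was called with its high value at day 45, with day means of 26.7, 40.6, 33.1 and 267 CPM, and lost that call without day 45 (0.01). The member that fell was PDE4D (-0.36 ± 0.09, adjusted p = 0.00214), which was not called without day 45 (-0.07) or without day 23 (-0.32).

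Glucocorticoid response genes were mostly higher in the phase that contained dexamethasone. Of 16, 11 rose and 1 fell, with a median of 1.08, and 6 were consistent. FKBP5, a cochaperone of the glucocorticoid receptor, had 23.6 and 37.7 CPM (day 23), 34.1 and 39.8 (day 31), 142 and 157 (day 38), and 123 and 129 (day 45). TSH-phase libraries all lay above those of the cAMP phase, with close levels at days 38 and 45 (log2 fold change 2.03 ± 0.17, adjusted p = 4.3e-12). TSC22D3, the leucine zipper protein GILZ, stepped evenly from 54.8 ± 8.03 to 128 ± 9.10 CPM (1.23 ± 0.12, adjusted p = 3.1e-10), and SGK1, a serum- and glucocorticoid-regulated kinase, rose from 24 ± 8.75 to 86.8 ± 23.4 CPM (1.88 ± 0.16, adjusted p = 2.1e-11). PER1, a clock gene and common target, was not called (-0.28 ± 0.15, adjusted p = 0.171), but was called lower without day 31 replicate 1 (-0.43), day 45 replicate 1 (-0.46) or day 38 (-0.49) and without TMM factors (-0.46). Of 6 metallothioneins tested, metal-binding proteins that also answer to glucocorticoids, 4 rose, with a median log2 fold change of 4.71 (4.50 with genes without counts at their lower bound), but without day 45 only 2 did, with a median of 2.79. MT2A, consistent, had 1 and 0 counts (day 23), 9 and 14 (day 31), 135 and 63 (day 38), and 122 and 539 (day 45). MT1X, the other consistent member, rose from 6.71 ± 2.20 to 24.3 ± 5.71 CPM (1.84 ± 0.29, adjusted p = 4.2e-06). Metallothionein genes are near-identical copies, and reads shared between them make single values uncertain.

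Cytokines, chemokines and NF-kB targets rose almost throughout the list. Of 16 genes, 15 were called higher and 0 lower, 10 were consistent, and the median log2 fold change was 3.72. CXCL8, a neutrophil attractant, measured 0.222 and 0.686 CPM (day 23), 6.24 and 5.24 (day 31), 121 and 82.4 (day 38), and 638 and 543 (day 45). The lowest TSH-phase library lay far above the highest of the cAMP phase, and the day 45 libraries lay above those of day 38 (log2 fold change between phases 7.22 ± 0.19, adjusted p = 4.7e-25). CCL20, an attractant of lymphocytes, had 0 and 0 counts (day 23), 9 and 16 (day 31), 175 and 127 (day 38), and 599 and 729 (day 45). Like CXCL8, it had its highest values at day 45. CCL2, a monocyte attractant, took a more even step from 4.58 ± 1.58 to 65.2 ± 15.5 CPM (3.86 ± 0.24, adjusted p = 5.7e-15). PTGS2, the inducible cyclooxygenase, had day means of 4.23, 4.48, 57.8 and 188 CPM, and shares exon bases with an antisense RNA. CXCL2 rose from 48.9 ± 35.4 to 548 ± 322 CPM (3.58 ± 0.13, adjusted p = 1.2e-21) and TNFAIP3, an inhibitor of NF-kB, from 12.8 ± 7.16 to 181 ± 139.9 CPM. NFKB1, a subunit of NF-kB, was called with its high value at day 45, with day means of 38, 40.9, 36.9 and 187 CPM, and without day 45 its log2 fold change was -0.10. NFKBIA, which holds NF-kB in the cytoplasm and is on the glucocorticoid list, was consistent, with day means of 49, 89.2, 153 and 429.7 CPM. Of 15 interferon-stimulated genes, 7 rose and 1 fell, beside 29.9% of all genes called, with a median of 1.02. Without day 45, 3 rose and 1 fell, beside 4470 of all 21014 genes called, so the list then lay near the background. Only IFITM1 and IFITM3, membrane proteins that restrict virus entry, were consistent. IFITM1 went from 56.7 ± 10.1 to 346 ± 45.3 CPM (2.62 ± 0.11, adjusted p = 8.1e-20).

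Targets of TGF-beta did not move together. Of 10, 5 rose and 3 fell, with 4 consistent higher and 2 consistent lower and a median of 0.73. TGFBI, a matrix protein induced by TGF-beta, measured 13.2 and 8.35 CPM (day 23), 21.1 and 26.1 (day 31), 53.8 and 48.8 (day 38), and 64.2 and 47.4 (day 45). The phases did not overlap, and the levels of days 38 and 45 lay in one range (log2 fold change between phases 1.75 ± 0.22, adjusted p = 5.8e-08). COL1A1, the collagen I chain, rose from 301 ± 29.3 to 970.3 ± 158 CPM (1.68 ± 0.09, adjusted p = 8.4e-17). SMAD7, the inhibitory SMAD, and FN1, fibronectin, fell. SMAD7 had day means of 244, 180.5, 108 and 59.1 CPM, and FN1 day means of 7304, 6796, 4064 and 2712 CPM, so that each was lower at day 38 and lower again at day 45 (log2 fold changes -1.39 ± 0.11, adjusted p = 9.8e-13, and -1.09 ± 0.07, adjusted p = 3.0e-15). ID1, a target of BMP signals, fell from 844 ± 136 to 206 ± 99.1 CPM (-2.16 ± 0.09, adjusted p = 8.1e-20).

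In the basement membrane, 6 of 15 genes rose and 2 fell, and 5 were consistent, all higher, beside a median of 0.05 (-0.13 without TMM factors). COL4A1, a chain of collagen IV, measured 57.7 and 54.2 CPM (day 23), 51.7 and 48.1 (day 31), 374 and 382 (day 38), and 237 and 230.3 (day 45), with no overlap and the higher values at day 38 (log2 fold change 2.49 ± 0.10, adjusted p = 3.0e-20). NID1, the linker nidogen, rose from 14.9 ± 4.76 to 96 ± 16.1 CPM (2.70 ± 0.16, adjusted p = 5.0e-16) and LAMA3, a laminin chain, from 10.4 ± 3.99 to 35.3 ± 6.96 CPM (1.74 ± 0.25, adjusted p = 1.0e-06), whereas its relative NID2 fell (-0.80 ± 0.08, adjusted p = 2.2e-09). Laminin LAMB1 was not called (0.01 ± 0.09, adjusted p = 0.95). Epithelial junction genes were divided, 5 higher and 4 lower of 16, with a median of 0.05 (-0.13 without TMM factors). CDH1, E-cadherin, was not called (0.16 ± 0.09, adjusted p = 0.162) except without day 38 (0.29), CLDN1, a tight junction claudin, had day means of 0.456, 7.80, 18.7 and 37.7 CPM, and CGN, cingulin of the tight junction, was the consistent member, falling from 81.8 ± 6.62 to 39.9 ± 2.64 CPM (-1.04 ± 0.13, adjusted p = 1.4e-07).

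Most genes of protein folding in the endoplasmic reticulum (ER) rose. Of 16 genes, 14 were higher and 0 lower, 8 were consistent, and the median was 0.75. HSPA5, the chaperone BiP, had 291 and 257 CPM (day 23), 315 and 290.2 (day 31), 870.4 and 799 (day 38), and 943 and 1004 (day 45). No library overlapped and the days of each phase were close (log2 fold change 1.65 ± 0.08, adjusted p = 1.6e-17). HSP90B1, a chaperone of secreted proteins, rose from 624 ± 53.5 to 1303 ± 82.7 CPM (1.07 ± 0.09, adjusted p = 3.4e-12), and XBP1, a transcription factor of the unfolded protein response, from 76.3 ± 6.82 to 165 ± 18.7 CPM (1.11 ± 0.11, adjusted p = 1.1e-09). Genes without a call were SDF2L1 (0.30 ± 0.50, adjusted p = 0.705) and CRELD2 (0.34 ± 0.33, adjusted p = 0.486), both at low level.

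Glycolysis and hypoxia genes were higher in 13 of 15 members and lower in 0, with 9 consistent and a median of 1.78. VEGFA, the vascular growth factor, measured 99.2 and 112 CPM (day 23), 173 and 169 (day 31), 1374 and 1303 (day 38), and 867 and 921 (day 45). SLC2A1, the glucose transporter GLUT1, had 173 and 157 CPM (day 23), 367 and 394 (day 31), 1777 and 1591 (day 38), and 667 and 586 (day 45). In both genes every TSH-phase library exceeded every cAMP-phase library, and day 38 lay above day 45 (phase log2 fold changes 3.03 ± 0.09, adjusted p = 2.6e-24, and 2.04 ± 0.10, adjusted p = 9.3e-18). LDHA, lactate dehydrogenase, followed the same order with day means of 201, 369, 1532 and 692 CPM. PDK1, a kinase that holds pyruvate from the mitochondria, had day means of 58.6, 97.3, 307 and 83.2 CPM, so that its day 45 lay within the range of the cAMP phase, and it was called without being consistent, through day 38 (0.14 without it, not called). Cholesterol synthesis genes were higher in 8 of 15 and lower in 0 (4 higher and 1 lower without day 23), with a median of 0.49, but none was consistent. HMGCS1, the HMG-CoA synthase of the pathway, had day means of 80.9, 127, 149.7 and 257 CPM.

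DNA replication genes mostly fell. Of 16 replication genes 10 fell and 0 rose, 6 were consistent, and the median was -1.11. The 6 were MCM2 to MCM7, subunits of the helicase that opens replication origins. MCM2 measured 54.2 and 40.4 CPM (day 23), 52.1 and 53.2 (day 31), 18 and 13.4 (day 38), and 12.9 and 8.41 (day 45). All TSH-phase libraries were lower, with a log2 fold change of -1.95 ± 0.19, adjusted p = 2.3e-10. MCM5 fell from 33.7 ± 6.92 to 6.97 ± 3.08 CPM (-2.34 ± 0.25, adjusted p = 3.4e-09), and the other 4 fell by 1.23 to 1.32 on the log2 scale. PCNA, the sliding clamp, was not called (-0.33 ± 0.27, adjusted p = 0.378), but was called lower without day 45 replicate 2 (-0.86). Among 16 genes of mitosis 2 rose and 4 fell, near the 29.9% of all genes that were called, with a median of 0.09 (-0.09 without TMM factors). None rose without day 38 and 1 fell without day 45. TOP2A, a topoisomerase, was called higher (0.49 ± 0.12, adjusted p = 0.00129), CENPF, a kinetochore protein, lower (-0.48 ± 0.11, adjusted p = 9.5e-04), and CDK1, the mitotic kinase, was not called (0.37 ± 0.19, adjusted p = 0.143). TOP2A lost its call without day 38 (0.16) or day 23 (0.28), and CENPF without day 45 (-0.06). FOXM1, a transcription factor of the division programme, was the consistent member, from 26.6 ± 3.23 to 11.5 ± 3.15 CPM (-1.24 ± 0.23, adjusted p = 6.7e-05), and overlaps ITFG2 on the opposite strand.

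Among the largest falls were those of anterior HOX genes, transcription factors that mark position along the body axis. Of 11 genes of HOXA and HOXB, 10 fell and 0 rose, 9 were consistent, and the median was -8.35 (-7.33 with genes without counts at their lower bound). HOXA4 had no count in any TSH-phase library. It had 141 and 110 counts (day 23) and 207 and 132 (day 31), 590 in all, and was at least 184-fold lower, against a floor of 3 counts summed over the 4 libraries. HOXA3 had 1687 counts over the cAMP phase against 5 over the TSH phase, all 5 at day 38, with phase means of 0.143 ± 0.221 CPM in the TSH phase and 46.8 ± 4.16 in the cAMP phase (adjusted p = 4.0e-19). HOTAIRM1, HOXA5 and HOXA2 each had 1 count over the 4 TSH-phase libraries, against 594, 504 and 393. The ratio was 473 (84.5 to 18700) for HOXA5, 369 (65.8 to 14600) for HOXA2 and 557 (99.6 to 22000) for HOTAIRM1 (95% intervals, exact binomial, counting error only). HOXB2 and HOXB3 kept a low level, with day means of 19.6, 23.2, 1.53 and 1.02 CPM for HOXB2 and day means of 30.9, 26.2, 2.29 and 3.03 CPM for HOXB3, and both overlap antisense RNAs. All of these were present in the day 16 libraries, HOXA3 at a mean of 44.7 CPM. HOXA2 to HOXA5 lie within one stretch of chromosome 7 (GRCh38, chr7:27100354-27152583, GENCODE 44), where HOXA4 and HOXA5 fall inside the interval annotated for HOXA3. HOXA3 and HOXA4 overlap HOXA-AS2 and HOXA-AS3, and HOTAIRM1 another gene, on opposite strands, so these counts cannot be divided between the strands.

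Genes of embryonic growth split. Of 14, 4 rose and 6 fell, with 2 consistent higher and 4 consistent lower and a median of -0.25. LIN28B, which blocks maturation of let-7 microRNAs, measured 88.2 and 72.2 CPM (day 23), 86.6 and 56.1 (day 31), 36.8 and 34.7 (day 38), and 12.5 and 7.21 (day 45), lower at day 38 and lower again at day 45 (-2.02 ± 0.16, adjusted p = 3.1e-12). SALL4, a stem cell transcription factor, fell from 36 ± 2.30 to 13.3 ± 4.10 CPM (-1.48 ± 0.18, adjusted p = 4.0e-08), and IGF2BP1 and IGF2BP2, RNA-binding proteins of fetal tissue, fell by 0.88 and 0.43 on the log2 scale. The fetal growth factor IGF2 went the other way, from 11.7 ± 6.95 to 74.4 ± 29.9 CPM (2.78 ± 0.20, adjusted p = 1.4e-13), with IGF2-AS on its opposite strand, as did DLK1, an imprinted gene, from 155 ± 40 to 428 ± 109 CPM (1.47 ± 0.10, adjusted p = 2.2e-14). HMGA2, a let-7 target, was not called (0.05 ± 0.08, adjusted p = 0.736), being high at day 38 and low at day 45 (-0.38 without day 38, 0.47 without day 45, called in both).

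Markers of other cell types were called in unequal shares, those of neural, blood, C cell and distal lung type near the 29.9% of all genes and the others above it. Muscle and cardiovascular markers, 5 of 8 higher and 0 lower (median 2.81), summed to 34.2, 27.7, 36.8 and 34.8 CPM in the cAMP-phase libraries and 258, 241, 220.4 and 225 in the TSH-phase libraries. MYH6, a cardiac myosin and the most abundant of them, measured 9.97 and 5.26 CPM (day 23), 19.8 and 11.3 (day 31), 97.8 and 87.1 (day 38), and 73.9 and 98.3 (day 45) (3.03 ± 0.21, adjusted p = 5.8e-14), while PECAM1, of endothelium, had no count in the cAMP phase, 0.726 ± 0.627 CPM in the TSH phase and no call. Fibroblast markers, 4 of 7 higher and 1 lower (median 1.05), summed to 1399, 1347, 1136 and 1416 CPM in the cAMP phase and 3189, 3345, 3498 and 2818 in the TSH phase, mostly COL3A1 and COL1A2, and none was at 0. COL1A2 rose from 190.5 ± 30.2 to 1064 ± 129 CPM (2.48 ± 0.10, adjusted p = 3.0e-20), while LUM, lumican of fibroblasts, fell (-1.15 ± 0.12, adjusted p = 3.5e-09). Airway basal and goblet markers, 6 of 8 higher and 0 lower (median 3.50), but 3 higher and 1 lower without day 23 (median 1.63), overlapped in sum, with 11.5, 20.5, 169 and 163 CPM in the cAMP phase and 112, 83.5, 208 and 174 in the TSH phase. Of these, MUC5B, a mucin, was consistent (day means of 1.14, 2.89, 15.1 and 72 CPM), and KRT5, a basal keratin, had day means of 0.0572, 9.38, 10.9 and 32.5 CPM, with no call without day 23 (1.00). AGR2, a goblet cell gene and the most abundant, had day means of 10.2, 146, 32.2 and 63.5 CPM and no call, but without day 23 it was called lower (-1.70) and without day 31 or day 38 higher (2.13 and 0.73).

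Liver-type plasma protein genes, 4 of 10 higher and 2 lower (median -0.02), depended on the day, with 2 higher and 5 lower without day 23 (median -1.18), medians of 1.11 without day 31 and 1.35 without day 38, and 4 higher and 4 lower without day 45 (-1.06). They summed to 75.7, 67.9, 386 and 336 CPM in the cAMP phase and 348, 186, 694 and 604 in the TSH phase. SERPINA1, antitrypsin and the most abundant, was consistent (day means of 11.5, 77.9, 156 and 304 CPM), while TTR, transthyretin, a carrier of thyroid hormone, fell (day means of 16.2, 55.8, 4.17 and 5.21 CPM). Distal lung markers, 1 of 8 higher and 2 lower (median -0.53), summed to 233, 223, 644 and 652 CPM in the cAMP phase and 139.5, 137, 158 and 169 in the TSH phase. These markers counted 0 higher and 2 lower without day 23 (median -1.30), and 0 higher and 1 lower without day 38 (-0.31). Without day 45 they counted 1 higher and 3 lower (-0.95). SFTPB, surfactant protein B, their most abundant gene and the bulk of the sum at day 31, measured 165 and 149 CPM (day 23), 499 and 502 (day 31), 6.59 and 8.62 (day 38), and 46.2 and 50.2 (day 45) (-3.87 ± 0.13, adjusted p = 1.9e-22). SFTPC, the defining surfactant gene of alveolar cells, had too few counts to be tested. C cell markers, 2 of 6 higher and 0 lower (median 1.02, or 0.45 without day 31), summed to 44.8, 36.9, 41.4 and 47.6 CPM against 103, 91.1, 74.8 and 68.4, with CALCB the most abundant. CALCA, the calcitonin gene, rose from 3.71 ± 2.23 to 21.7 ± 5.32 CPM (2.76 ± 0.34, adjusted p = 6.0e-08), though it shares near-identical sequence with CALCB. Neural markers, 1 of 8 higher and 1 lower (median 0.84), summed to 33.5, 41, 34.6 and 38.8 CPM against 43, 44.5, 47.3 and 29.1, with TUBB3 the most abundant (1.82 ± 0.27, adjusted p = 1.7e-06, but adjusted p = 0.0965 with days summed). The median of the neural list was 0.46 without day 23, 1.17 without day 31 and 0.17 without day 38. ELAVL4, a neuronal RNA-binding protein, was the member that fell, a steady step from 11.6 ± 3.18 to 0.952 ± 0.636 CPM (-3.60 ± 0.53, adjusted p = 1.5e-06), and RAX was at 0 in the cAMP phase. Blood markers, 1 of 4 higher and 0 lower (median 0.36, or -0.99 without day 45), summed to 3.55, 5.37, 9.93 and 12.2 CPM against 12, 5.36, 40.4 and 41.8, mostly CD68, which was not called without day 45 (0.74). Whether cells of these types among the sorted cells had a part in the collagen, cytokine or other differences was not tested.

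**Figure D4:**
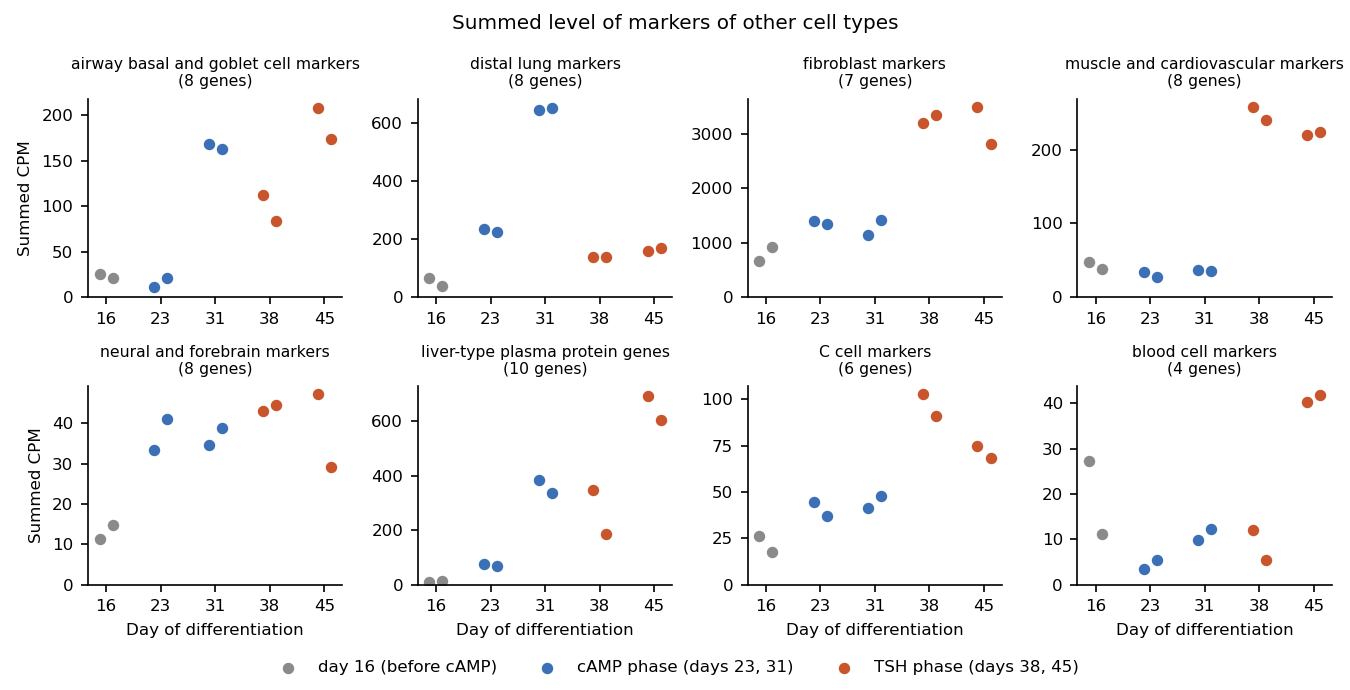
Summed CPM (y axes, from 0) of the tested markers of 8 other cell types in each of the 10 libraries by day (x axes). Muscle and cardiovascular, fibroblast and C cell markers lie higher in every TSH-phase library than in any cAMP-phase library, distal lung markers lower, and the other sums overlap between the phases.

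Heat shock and immediate early genes, which answer to cell handling, were called in both directions, 4 higher and 5 lower of 12, beside 29.9% of all genes called. None was consistent, and the median was 0.14, or -0.04 without TMM factors. Without day 45, 1 rose and 2 fell, beside 4470 of all 21014 genes called, so the list then lay near the background. HSPH1, a heat shock protein, shows how a phase mean can hide its days. It had 407 and 402 CPM (day 23), 456 and 417 (day 31), 82.5 and 85.3 (day 38), and 629.9 and 714 (day 45). The TSH phase held both the lowest and the highest libraries, and the log2 fold change of -0.82 ± 0.09, adjusted p = 1.8e-09 does not describe either day. Without day 38 it was 0.68. FOS, an early response gene, had day means of 1516, 1246, 1460 and 360 CPM, and without day 45 its log2 fold change was 0.09.

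Beyond the lists, the consistent genes with the largest fitted rise included GJB6, a connexin (from 0.171 ± 0.278 to 17.4 ± 9.89 CPM), BHLHE41, a clock repressor that overlaps SSPN on the opposite strand (from 0.164 ± 0.190 to 13.1 ± 3.30 CPM), TAC1, the precursor of substance P (from 1.34 ± 1.55 to 32.5 ± 2.32 CPM), and IL1RL1, the receptor of interleukin 33 (from 0.437 ± 0.507 to 23.8 ± 20.8 CPM). All 4 had no count at day 23, so their fitted fold changes are not given. TAC1 had 0 and 0 counts (day 23), 25 and 24 (day 31), 295 and 309 (day 38), and 214 and 286 (day 45). NPPC, C-type natriuretic peptide, had 482 counts over the TSH phase against 3 over the cAMP phase, a ratio of 171 (58.3 to 834). Among genes with at least 5 CPM in each of the 8 libraries, AHNAK2, a scaffold protein that overlaps PLD4 on the opposite strand, rose from 19.3 ± 5.16 to 333 ± 185 CPM, and FNDC1, a fibronectin domain protein, from 12.8 ± 2.05 to 201 ± 65.6 CPM (3.92 ± 0.15, adjusted p = 4.1e-21). By difference in CPM, TG and small noncoding RNAs rose most.

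C8B, a complement component, had 590 counts over the cAMP phase against 1 over the TSH phase, a ratio of 553 (98.9 to 21900). SLC6A2, the noradrenaline transporter, fell from 12.5 ± 3.45 to 0.137 ± 0.204 CPM. RANBP10, a Ran-binding scaffold, measured 705 and 676 CPM (day 23), 646 and 629 (day 31), 50.7 and 58.3 (day 38), and 52 and 46.9 (day 45), close at both days of each phase and without overlap (-3.68 ± 0.12, adjusted p = 1.4e-22). DACT1, a modulator of WNT signals, fell from 493 ± 24.4 to 41.2 ± 18.6 CPM (-3.70 ± 0.10, adjusted p = 6.8e-25), CYSLTR2, a leukotriene receptor, from 279 ± 49.8 to 22.7 ± 2.52 CPM (-3.60 ± 0.12, adjusted p = 7.2e-23), and GDF6, a BMP family ligand, from 114 ± 21.2 to 8.31 ± 2.19 CPM (-3.77 ± 0.17, adjusted p = 3.2e-19). By difference in CPM, FN1 fell most, followed by FREM2, a matrix protein of epithelia with FREM2-AS1 on its opposite strand (-1.37), and UNC5C, a netrin receptor (-1.61).

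SST, somatostatin, a peptide hormone whose promoter is a textbook target of cyclic AMP through CREB, measured 1020 and 910.2 CPM (day 23), 984 and 1123 (day 31), 20.6 and 14.4 (day 38), and 47.8 and 23.9 (day 45). All 4 TSH-phase libraries lay far below the cAMP phase and below the 2 day 16 libraries (mean 137 CPM), with phase means of 26.7 ± 14.6 CPM in the TSH phase and 1009 ± 88.7 in the cAMP phase (log2 fold change -5.34 ± 0.15, adjusted p = 1.2e-24). Promoter sequences of RefSeq (GRCh38.p14) were searched for the palindrome TGACGTCA, the full cyclic AMP response element, which reads the same on both strands, from 250 bases before to 50 after the start of each gene. Among 14838 tested genes with a promoter in the table it stood in 2.63%, against 2.81% of 677 consistent genes that were higher and 2.07% of 484 that were lower, so the share was near the background in both directions. The 3 consistent genes with the element and the largest fall, and the 3 with the largest rise, with at least 10 CPM in the higher phase, are shown by the 130 bases before their start, 5′ to 3′ on the strand of the gene and with the element in capitals. They are shown because genes with the element before their start moved in both directions.
SST (chr3:187670395-187670524, - strand): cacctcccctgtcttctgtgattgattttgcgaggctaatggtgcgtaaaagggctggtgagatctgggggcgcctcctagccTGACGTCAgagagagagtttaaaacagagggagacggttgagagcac
VGF (chr7:101165570-101165699, - strand): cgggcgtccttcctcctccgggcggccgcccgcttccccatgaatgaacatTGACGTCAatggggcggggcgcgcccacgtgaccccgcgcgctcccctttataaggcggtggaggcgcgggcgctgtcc
CLSTN2 (chr3:139935055-139935184, + strand): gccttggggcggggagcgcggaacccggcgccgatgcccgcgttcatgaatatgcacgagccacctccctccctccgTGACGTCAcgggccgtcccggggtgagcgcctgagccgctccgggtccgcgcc
FSTL4 (chr5:133612542-133612671, - strand): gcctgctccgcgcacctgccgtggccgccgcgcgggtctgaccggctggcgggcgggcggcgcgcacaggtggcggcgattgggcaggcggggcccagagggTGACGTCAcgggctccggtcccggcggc
IL32 (chr16:3065273-3065402, + strand): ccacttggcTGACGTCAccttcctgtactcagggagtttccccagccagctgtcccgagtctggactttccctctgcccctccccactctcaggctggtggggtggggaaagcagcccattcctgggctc
PDLIM3 (chr4:185535508-185535637, - strand): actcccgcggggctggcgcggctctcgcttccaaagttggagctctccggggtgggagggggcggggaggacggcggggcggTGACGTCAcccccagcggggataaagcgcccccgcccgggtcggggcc
VGF, a neuropeptide precursor, fell from 20.9 ± 9.15 to 1.34 ± 1.29 CPM (-4.24 ± 0.41, adjusted p = 2.4e-10), and CLSTN2, a synaptic adhesion protein, from 67.4 ± 10.4 to 15.1 ± 6.81 CPM (-2.22 ± 0.19, adjusted p = 1.3e-11). FSTL4, a follistatin-like protein, rose from 1.12 ± 0.693 to 39.1 ± 13 CPM (5.27 ± 0.35, adjusted p = 1.9e-14), IL32, a cytokine, from 0.633 ± 0.162 to 11.3 ± 2.29 CPM (4.15 ± 0.54, adjusted p = 1.4e-07), and PDLIM3, a muscle protein, from 4.04 ± 1.74 to 49.1 ± 15.1 CPM (3.57 ± 0.26, adjusted p = 2.4e-13). The element began 47 bases before the start in SST, 79 in VGF and 53 in CLSTN2, and 28 in FSTL4, 48 in PDLIM3 and 121 in IL32. A match of letters is a description and shows no binding.

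Small noncoding RNAs, a class chosen after its values were seen, took a larger share of the counts in the TSH phase. Symbols of snRNA, Y RNA, 7S RNA, snoRNA and scaRNA genes, with RMRP and RPPH1, together held 6.24 to 8.25% of the counts of the cAMP-phase libraries and 10.6 to 15.4% of the TSH-phase libraries, beside 11.2 and 12.6% at day 16. RN7SK, a nuclear RNA that restrains transcription elongation, measured 41970 and 42000 CPM (day 23), 27280 and 36260 (day 31), 91220 and 71820 (day 38), and 74070 and 53800 (day 45) (0.98 ± 0.08, adjusted p = 3.9e-12). RNU4-2, the U4 RNA of the spliceosome, rose from 1834 ± 609.9 to 8858 ± 1499 CPM (2.28 ± 0.15, adjusted p = 1.0e-14), and RNY1, a Y RNA, from 60 ± 14 to 1021 ± 135 CPM (4.10 ± 0.13, adjusted p = 7.2e-23). Without overlap, RNY3 rose by 3.94, RN7SL1, the RNA of the signal recognition particle, by 1.18 and its copy RN7SL2 by 0.96 on the log2 scale. Of 347 such genes tested, 84 were called higher (24.2%, beside 16.1% of all genes) and 8 lower, and 45 were consistent and higher. These genes have many near-identical copies, and how the counting divided reads among them is not stated. Whether RNA quality or library making had a part in this share was not tested.

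The day 16 libraries show where the consistent genes stood before cAMP. Of the 934 genes that were higher in the TSH phase, both day 16 libraries lay below all 4 TSH-phase libraries in 720 (77.1%, beside 18.2% of all genes tested) and above all 4 cAMP-phase libraries in 366 (39.2%, beside 16.6% of all genes tested). Of the 631 that were lower, day 16 lay above all TSH-phase libraries in 445 (70.5%, beside 17.4% of all genes tested) and below all cAMP-phase libraries in 331 (52.5%, beside 14.6% of all genes tested). The choice of the genes, high in one phase and low in the other, favours such positions, and nothing is read from the shares. LDHA, at a mean of 717 CPM at day 16, stood above the cAMP phase and among the day 45 libraries, HSPA5, at 299.7, stood among the cAMP-phase libraries, and SFTPB, at 2.51, stood below every library of both phases.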

How the data were processed

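Bulk RNA-seq libraries of 10 samples were analysed, 2 per day, with the 8 libraries of days 23 to 45 in the comparison. By the study's methods and the submitters' processing notes, the authors trimmed reads with Trimmomatic, aligned them to GRCh38.p13 with HISAT2, made per-gene counts with HTSeq, and deposited these raw counts with no normalization. Tool versions and the strand setting of the counting are not given in the sources used here. The 2 libraries of a day are biological replicates by the study's methods, they differed beyond sampling noise (chi-square per degree of freedom 8.38 to 13.7), and p-values measure only the spread between such pairs. No molecular identifiers are named, so counting intervals and the floor of 3 counts cover counting error only.

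The filter kept genes reaching 5 counts in 2 or more of the 10 libraries. CPM were scaled by TMM factors, and the quasi-likelihood test of edgeR 4.0.16 (glmQLFTest) was run in R 4.3.3 with limma 3.58.1. The fit had 1 mean per day and left 5 residual degrees of freedom, and the contrast was the mean of days 38 and 45 minus that of days 23 and 31. Adjustment of p-values followed Benjamini-Hochberg over all 21014 genes, with a threshold of 0.05. SE is the absolute log2 fold change over the square root of F, and is approximate. Days have their own means, so change within a phase does not enter the error.

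The libraries, 27 gene lists (general knowledge and cell type markers) and calls were chosen with earlier results of these data known. Genes named are list members and, among consistent genes, the 8 each way with the largest fold and at least 10 CPM in the higher phase, the 6 each way with the largest fold and at least 5 CPM in each of the 8 libraries, and the 5 each way with the largest CPM difference. The promoter and small RNA genes were added after their values were seen. Untested list members, for want of counts, were SIK1, MT1A, MT1M, MT3, IER3, SFTPC, HBG1 and CD3E. Gene positions are from GENCODE 44, with 19489 of the 21014 symbols matched, and promoters from RefSeq (GRCh38.p14). Alternatives were DESeq2 1.42.0, other scalings and filters, other fits, and leaving out each library or day. A few members of the lists are counted in them but not reported by name here.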

Additional observations from a re-analysis of the deposited data

Results flagged for a closer look

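In each phase, the library farthest from the other 3 was compared with the spread of the 4 by Dixon's gap ratio at its 95% critical value for the named genes with enough counts. Chance alone sets apart about 1 in 20 groups of 4 like libraries. Each group here joins 2 days, so that rate need not hold. In all, 8 of 252 groups were set apart, 3 of them in the TSH phase. In the cAMP phase, AHNAK2 was high in day 23 replicate 2 (26.98 CPM against 16.17 to 17.73, ratio 0.856), PER1 was high in day 31 replicate 2 (108.8 against 71.34 to 74.04, ratio 0.928), and TSC22D3 was high in day 31 replicate 1 (66.74 against 49.99 to 51.9, ratio 0.886). MCM2 was low in day 23 replicate 2 (40.36 against 52.1 to 54.2, ratio 0.848) and TSHR was low in day 23 replicate 1 (64.95 against 77.26 to 78.31, ratio 0.921). In the TSH phase, HSP90B1 was low in day 45 replicate 1 (1179 against 1335 to 1353, ratio 0.897), IFITM3 was high in day 38 replicate 1 (268.1 against 219.9 to 223.6, ratio 0.923), and TAC1 was high in day 38 replicate 2 (35.98 against 31.07 to 31.86, ratio 0.839).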

How the results depend on the processing

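The count of 6274 called genes was within 1.5 times under DESeq2 (6393), other scalings and filters, a fit of the 8 libraries with 1 mean per day (6729) and without any one day (4464 without day 23 to 5863 without day 38). It was 3951 with 1 mean per phase, 582 with the libraries of a day summed and 2822 with a log2 fold change of at least 1. Leaving out 1 library at a time gave 4935 to 6731 called, 1033 to 1837 consistent and 586 to 808 steady genes, the lowest each time without day 38 replicate 1. Replicate numbers did not pair the samples (the deviations of same-numbered libraries from their day means correlated between -0.032 and 0.020 over the 10 pairs of days), and the replicate block gave 6437 called, 1721 consistent and 819 steady genes.

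Over 142 named genes and 26 alternatives, 3571 of 3688 log2 fold changes kept their side of the threshold and, where called, their direction. Of the rest, 100 were no longer called, 11 were newly called and 6 reversed. A change of sign in a gene called in neither fit did not count as reversed. The reversals were AGR2 without day 23 (-1.70), HMGA2 (-0.38) and HSPH1 (0.68) without day 38, and FOS (0.09), IYD (0.10) and NFKB1 (-0.10) without day 45. The cause was not tested. With 1 mean per phase, CENPF, FOS, HSPH1, IYD, KRT5, NKX2-1, PDE4D and TOP2A lost their call. With the libraries of a day summed, 58 of the 142 lost their call, among them SLC5A5 (adjusted p = 0.0577), TSHR (0.084), CCL20 (0.053), CXCL2 (0.0618), TAC1 (0.0893), SFTPB (0.088), FN1 (0.0504), SMAD7 (0.0802), LDHA (0.0663), TNFAIP3 (0.0565) and RN7SK (0.0503), by edgeR over 2 residual degrees of freedom. Days held out of a phase leave 1 day to stand for it. SLC5A5 had 0 to 13 counts in a cAMP-phase library, too few to fix its level there closely.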

Other observations

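Some genes had no count in any library of one phase, and their folds are lower bounds against a floor of 3 counts summed over that phase. This choice followed from their values. With a mean of at least 2 CPM in the other phase, 27 genes had no count in the 4 cAMP-phase libraries and 8 had none in the 4 TSH-phase libraries. FOXD1, a forkhead transcription factor, had 51 and 29 counts (day 38) and 28 and 56 (day 45), at least 58.3-fold higher, with 7 and 2 counts at day 16. ADRB1, the beta-1 adrenergic receptor, had 32 and 23 counts (day 38) and 21 and 47 (day 45), at least 43.7-fold higher, and ADCY8, an adenylyl cyclase, had 35 and 17 counts (day 38) and 16 and 13 (day 45), at least 28.8-fold higher. HLA-DRA, a chain of MHC class II, was uneven, with 23 and 7 counts (day 38) and 46 and 95 (day 45). ITGAM, an integrin chain of myeloid cells, had 2 and 1 counts (day 38) and 162 and 88 (day 45), and EGR4, an early response transcription factor, had 5 and 3 and then 28 and 72, so neither was consistent. In the other direction, OR51E2, an olfactory receptor family member, had 87 and 30 counts (day 23) and 37 and 83 (day 31), at least 74.1-fold lower in the TSH phase, and was nearly absent at day 16 (0 and 5 counts). HOXB8 had 122 counts over the cAMP phase and TNFSF11, the ligand RANKL, had 99, at least 38.1-fold and 31-fold lower. At such counts the level of a single library is imprecise.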
